A study of Mus musculus with 7 samples.

Results

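The genes described are 10 that carry and restrain the interleukin-2 (IL-2) signal: the receptor chains Il2ra, Il2rb and Il2rg, the transcription factors Stat5a and Stat5b, the feedback inhibitors Cish, Socs1, Socs2 and Socs3, and the kinase gene Pim1. They were chosen by name, and all 10 were found among the 53465 Ensembl gene IDs of the deposited count table by matching IDs to mouse symbols. All 10 also passed the filter on low counts that left 14784 genes for testing. The samples are 7 RNA-seq libraries of CD4+ CD25+ liver cells, taken from mice by flow cytometry with a gate that enriches for Treg, the regulatory T cells. KO_MCD stands for CD73 KO mice on a methionine- and choline-deficient diet (MCD) (3 libraries). WT_MCD stands for wild type C57BL/6 mice on that deficient diet (2 libraries), and WT_NCD for such mice fed the normal control diet (2 libraries). Diets lasted 4 weeks, and none of the 7 libraries came from knockout mice on control diet. KO_MCD against WT_NCD thus differs in genotype and diet together, and the 2 cannot be told apart there. The labels do not say which part of the CD73 gene was deleted or in which cells, how old the animals were, or whether replicates were separate or pooled animals. The p-values thus reflect only how far these libraries differ, in part perhaps for technical reasons.

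IL-2 is held by the alpha chain (CD25) and signals through the beta and gamma chains, whose kinases JAK1 and JAK3 phosphorylate STAT5. STAT5 dimers enter the nucleus and switch on genes that include Il2ra itself and Cish, and the SOCS family proteins made in this way dampen the signal again. Treg make little IL-2 of their own, carry much CD25 and need this pathway to keep Foxp3, their lineage factor.

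Libraries held 19731501 to 24398738 counts, and a gene without a count could have had up to 0.129 to 0.158 CPM (3 counts, counting error only). CPM is the usual depth-scaled count, here after TMM scaling. The targeted gene Nt5e, which encodes CD73, had 5.88 to 14.5 CPM (KO_MCD), 87.6 to 177 CPM (WT_MCD) and 241 to 243 CPM (WT_NCD). Foxp3 was counted in all libraries, at 108 to 287 CPM, and so were all 17 genes of a pan T cell list and all 12 of a Treg list. The 7 libraries also held RNA of macrophages, the 14 listed genes of which summed to 7441 to 12734 CPM (KO_MCD), 2427 and 32987 CPM (WT_MCD), and 10821 and 1180 CPM (WT_NCD). Of that list only Timd4, a marker of resident Kupffer cells, was at 0 in any library (2 of them). The T cell list summed to 9057 to 11069 CPM (KO_MCD), 15057 and 7562 CPM (WT_MCD), and 13540 and 19406 CPM (WT_NCD). WT_MCD replicate 2 and WT_NCD replicate 2 thus stand at the far ends of both lists. By median log2 fold change, genes of other cells differed between the groups as well. Macrophage genes had -1.65 in KO_MCD against WT_MCD (all 14 lower), though their sums overlapped. The 10 tested neutrophil and monocyte genes had -1.37 there (all lower). Natural killer and CD8 T cell genes had 3.08 in WT_MCD against WT_NCD and 2.66 in KO_MCD against WT_NCD (11 of 11 higher in both). In KO_MCD against WT_MCD they had -0.42 (3 of 11 higher). B cell genes had 1.67 in KO_MCD against WT_MCD and 2.73 in KO_MCD against WT_NCD (8 of 10 higher in both). Their sums overlapped all the same. The sums were 1735 to 2931 CPM (KO_MCD), 2450 and 2009 CPM (WT_MCD), and 3207 and 2867 CPM (WT_NCD). The 7 tested of 10 hepatocyte genes had -3.02 in KO_MCD against WT_MCD (all lower). Of these 10, only Ass1 was counted in every library. Dendritic cell genes had 2.41 in KO_MCD against WT_NCD (8 of 10 higher) and 2.81 in WT_MCD against WT_NCD (9 of 10 higher). In KO_MCD against WT_MCD they had -0.33 (3 of 10 higher). The part of these cells in the members' values was not tested. In bulk RNA, fewer cells of a type and less RNA per cell cannot be told apart.

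Cish and Socs3 are shown first because their start-site windows hold the core sequence that STAT5 dimers bind, TTCNNNGAA (a palindrome, so both strands were searched at once, with N any base). RefSeq windows (GRCm38.p6, 250 bases before to 50 after a start) were found for 8 of the 10 genes, in 11 windows; Il2rb and Socs2 had none. Cish held 2 non-overlapping matches beginning at its start site, and Socs3 held 1 that begins 154 bases before its start. The windows of Il2ra, Il2rg, Stat5a, Stat5b, Socs1 and Pim1 did not contain these letters. Of all 32851 windows in the table, 8.30% held at least 1 match and 0.457% held 2 or more. A match is a sequence feature only, and binding was not measured. The 30-base stretches, with matches in capitals and written along the gene's own strand, are as follows (Cish at chr9:107296656-107296685, plus strand; Socs3 at chr11:117969494-117969523, minus strand).
Cish: gttTTCCTGGAAagTTCTTGGAAatctgtc
Socs3: gccTTCTTAGAAgggaggggggggaaagtg

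The IL-2 receptor chains were all abundant in the sorted cells. Il2ra (ENSMUSG00000026770, chromosome 2, 11642807 to 11693193, GRCm38) encodes CD25, the antigen of the sort, so its level is bound to the gate as well as to the condition. Il2ra had 590.3, 769 and 604 CPM (KO_MCD), 791 and 193 CPM (WT_MCD), and 319.8 and 608 CPM (WT_NCD). The knockout libraries lay close together, while the wild type libraries of each diet were far apart and the groups overlapped. The lowest value came from WT_MCD replicate 2, the library with the highest macrophage sum, and the next lowest from WT_NCD replicate 1; the part of other cells in these values was not tested. The Il2ra log2 fold change was 0.41 (SE 0.57) in KO_MCD against WT_MCD, 0.09 (SE 0.62) in WT_MCD against WT_NCD and 0.50 (SE 0.57) in KO_MCD against WT_NCD. Without WT_MCD replicate 2 the value for KO_MCD against WT_MCD was -0.27, and without WT_MCD replicate 1 it was 1.80.

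Set against the T cell genes of the same library, Il2ra had 65.2, 73.4 and 54.6 in KO_MCD, as a ratio of its CPM to each 1000 CPM of the pan T cell list. It had 52.5 and 25.5 in WT_MCD, and 23.6 and 31.3 in WT_NCD, on that scale. On this scale the 3 knockout libraries lay above all 4 wild type libraries, the nearest of which (WT_MCD replicate 1) was only a little lower. Il2rb separated in the same way, and how many of all genes do so on this scale was not counted. An edgeR fit with the T cell list as library size did not call Il2ra in any comparison, and over all alternatives of KO_MCD against WT_NCD its smallest adjusted p was 0.451. That scaling moved the median log2 fold change of all genes to 0.72 in both comparisons with WT_NCD, against 0.04 and 0.06 with TMM, and left it at -0.03 in KO_MCD against WT_MCD. Under it 81.2% of all genes were higher in KO_MCD against WT_NCD, and 47.9% in KO_MCD against WT_MCD. A level above WT_NCD was thus the common case on this scale.

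Il2rb (chromosome 15, 78479256 to 78495271) encodes the beta chain, which is shared with the IL-15 receptor and is also abundant in natural killer cells. Its levels were 1016, 955 and 1135 CPM (KO_MCD), 997 and 668 CPM (WT_MCD), and 644 and 1327 CPM (WT_NCD). By CPM both extremes were control diet libraries, and the knockout libraries lay between them. Per 1000 CPM of the T cell list, Il2rb was 91.2 to 112 in KO_MCD, above all wild type libraries, by little over WT_MCD replicate 2. It was 66.2 and 88.4 in WT_MCD, and 47.5 and 68.4 in WT_NCD. The Il2rb log2 fold changes were 0.31 (SE 0.36), -0.24 (SE 0.39) and 0.07 (SE 0.36) in KO_MCD against WT_MCD, WT_MCD against WT_NCD and KO_MCD against WT_NCD. The 11 listed markers of natural killer and CD8 T cells summed to 223 to 239.7 CPM (KO_MCD), 155 and 417 CPM (WT_MCD), and 69.6 to 74.0 CPM (WT_NCD). Of that list Klrb1c, Klrd1, Prf1, Gzma and Cd8b1 were counted in all 7 libraries, and the other 6 genes, Ncr1 and Eomes among them, were at 0 in 1 to 5 libraries. The part of those cells in Il2rb was not tested.

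Il2rg (chromosome X, 101264378 to 101268255) encodes the common gamma chain, used by the receptors for IL-2, IL-4, IL-7, IL-9, IL-15 and IL-21. It had 455, 467 and 599 CPM (KO_MCD), 886 and 614 CPM (WT_MCD), and 617 and 893 CPM (WT_NCD). By CPM all 3 knockout libraries were below all 4 wild type libraries, though KO_MCD replicate 3 was close to the lower library of each diet. Per 1000 CPM of the T cell list, Il2rg was 44.6 to 54.1 in KO_MCD and 58.9 and 81.2 in WT_MCD. It was 45.6 and 46.0 in WT_NCD, which the knockout overlapped. The Il2rg log2 fold change was -0.57 (SE 0.30) in KO_MCD against WT_MCD and -0.58 (SE 0.29) in KO_MCD against WT_NCD, and -0.01 (SE 0.33) in WT_MCD against WT_NCD. None passed (edgeR adjusted p = 1, 0.599 and 1). With the T cell list as library size, the value for KO_MCD against WT_NCD was 0.12, below the median of 0.72 that all genes had under that scaling. Of the Il2rg exon bases 30.5% are shared with Gm20489, a gene on the same strand that was not counted in any library, so Il2rg counts are uncertain where the counting set such reads aside.

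**Figure D1:**
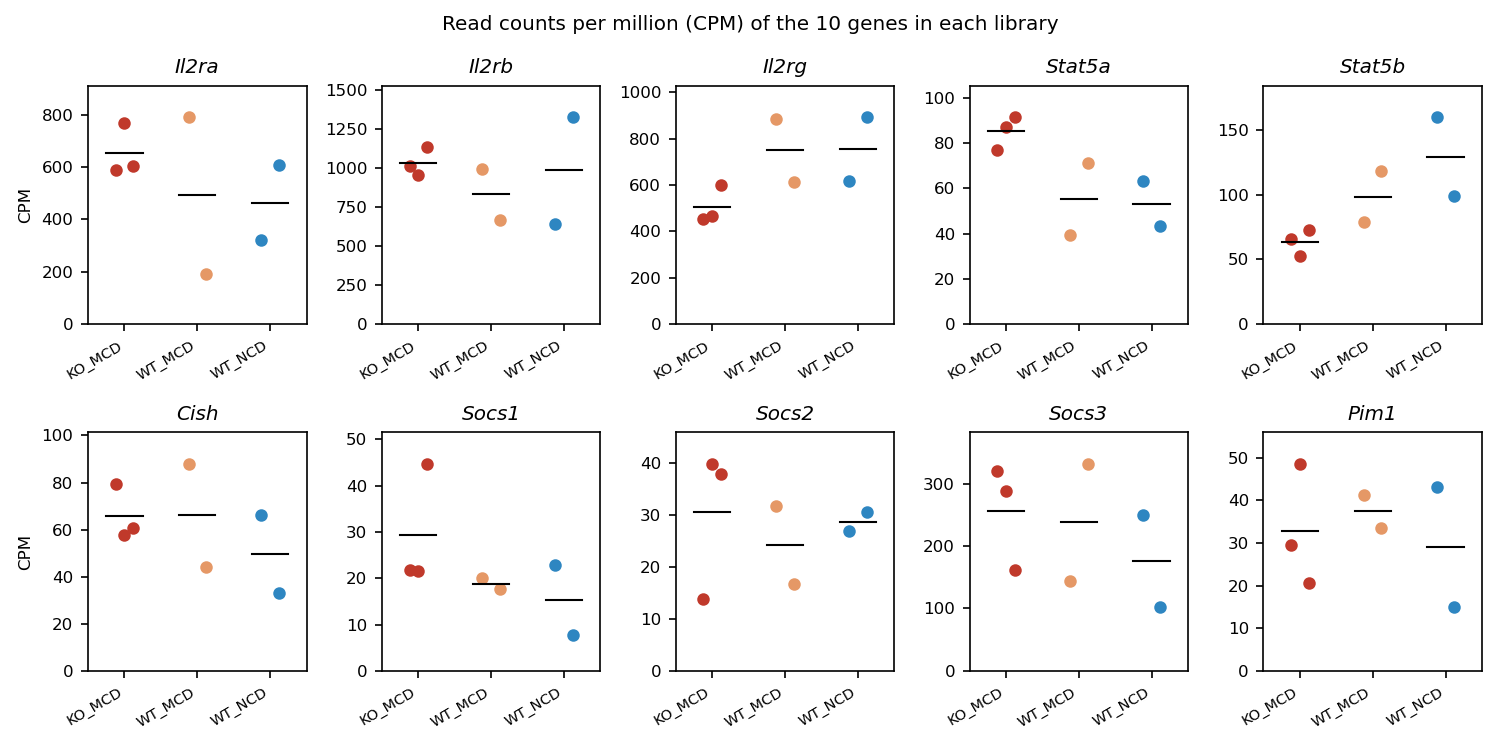
CPM of the 10 genes in each library, with groups on the x axis, 1 point per library and a line at the group mean (n = 3, 2 and 2). Stat5a is higher and Stat5b and Il2rg lower in the 3 KO_MCD libraries than in all 4 wild type libraries, while Il2ra spreads from 193 to 791 CPM within WT_MCD alone.

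Stat5a and Stat5b, the closely related transcription factors that carry the signal, lay on opposite sides in the knockout. They sit side by side on chromosome 11 (Stat5b at 100780731 to 100850724 on the minus strand, Stat5a at 100859351 to 100885169 on the plus strand), with their starts facing each other across 8626 bases. Stat5a had 77.1, 87.2 and 91.5 CPM (KO_MCD), 39.6 and 71.3 CPM (WT_MCD), and 63.2 and 43.3 CPM (WT_NCD). By CPM every knockout library was above every wild type library, by little over WT_MCD replicate 2. Stat5b had 65.6, 52.5 and 72.5 CPM (KO_MCD), 79.0 and 118 CPM (WT_MCD), and 159.8 and 98.6 CPM (WT_NCD). By CPM every knockout library was below every wild type library, again with a narrow gap to the nearest, WT_MCD replicate 1. Neither separation held per 1000 CPM of the T cell list. On that scale Stat5a was 8.26 to 8.52 in KO_MCD, 2.63 and 9.43 in WT_MCD, and 4.67 and 2.23 in WT_NCD, and Stat5b was 5.01 to 7.25 in KO_MCD, 5.25 and 15.6 in WT_MCD, and 11.8 and 5.08 in WT_NCD.

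The Stat5a log2 fold change was 0.62 (SE 0.36) in KO_MCD against WT_MCD, 0.06 (SE 0.39) in WT_MCD against WT_NCD and 0.68 (SE 0.37) in KO_MCD against WT_NCD. For Stat5b it was -0.63 (SE 0.34), -0.39 (SE 0.38) and -1.02 (SE 0.34) in the same order. Neither gene passed (edgeR adjusted p = 1 for both in KO_MCD against WT_MCD). Stat5b in KO_MCD against WT_NCD had the smallest adjusted p of the 10 genes (edgeR adjusted p = 0.484), and 3.74% of all tested genes ranked before it. Over the alternatives its adjusted p ran from 0.172 to 0.823, and with the T cell list as library size its log2 fold change was -0.43, where the median of all genes was 0.72.

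The share of the pair within a library does not depend on how libraries are scaled. Per kb of exon, Stat5b over Stat5a was 1.10, 0.775 and 1.02 in KO_MCD, 2.57 and 2.13 in WT_MCD, and 3.26 and 2.93 in WT_NCD. Per kb the pair was thus about equal in the knockout, while Stat5b was the more abundant in all 4 wild type libraries. The 3 groups did not overlap. The exon length joins all annotated transcripts, so the near equality depends on it, while the fold between groups does not. In counts without division by length, Stat5a was above Stat5b in every KO_MCD library and below it in all 4 wild type libraries. The ratio in KO_MCD was 0.407 times that in WT_MCD (geometric means), and an exact two-sided permutation test gave p = 0.1, the smallest this design allows. In KO_MCD against WT_NCD it was 0.308 times (exact permutation p = 0.1, again the smallest possible), and in WT_MCD against WT_NCD 0.757 times (exact permutation p = 0.333, the smallest possible). This ratio was chosen after its values were seen. Of the 45 ratios that 10 genes allow, 7 put all knockout libraries outside all wild type libraries, against 7.54% of all pairs among 9143 genes with at least 5 CPM on average and a count in every library. Stat5a with Stat5b had the widest gap of the 7 (0.96 on the log2 scale), and 0.509% of all pairs had a wider one. That share is for single pairs, while this pair is the widest of 45, so it cannot say how unusual the gap is. The 45 ratios share genes and are not independent.

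Of the 50-base words in annotated transcripts (GENCODE vM21), 8.21% of those of Stat5a and 11.0% of those of Stat5b occur in both genes. Counts of the pair are uncertain to the extent that reads from such stretches were set aside or split. Of the 7 ratios, those between receptor chains were Il2rb and Il2ra over Il2rg. Il2rb over Il2rg per kb was 1.24, 1.14 and 1.06 in KO_MCD, 0.626 and 0.606 in WT_MCD, and 0.580 and 0.827 in WT_NCD. Il2ra over Il2rg was 0.542, 0.689 and 0.422 in KO_MCD, 0.373 and 0.131 in WT_MCD, and 0.216 and 0.284 in WT_NCD. Il2ra over Il2rb was 0.400 to 0.604 in KO_MCD, 0.217 and 0.596 in WT_MCD, and 0.373 and 0.344 in WT_NCD, so that the knockout overlapped WT_MCD and lay above WT_NCD.

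**Figure D2:**
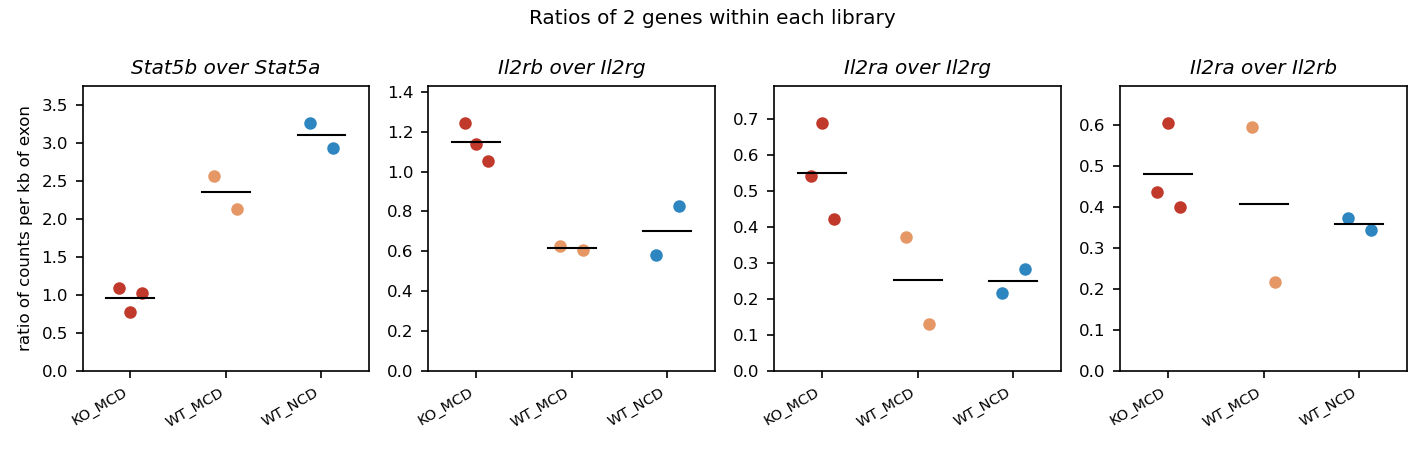
Ratios of counts per kb of exon for 4 gene pairs, with groups on the x axis, 1 point per library and a line at the group mean. Stat5b over Stat5a lies at 0.775 to 1.10 in KO_MCD and at 2.13 to 3.26 in the wild type libraries; Il2rb over Il2rg and Il2ra over Il2rg are higher in KO_MCD, and Il2ra over Il2rb in KO_MCD overlaps WT_MCD and lies above WT_NCD.

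Of the feedback inhibitors, Cish (chromosome 9, 107296026 to 107302784) is a direct STAT5 target whose protein binds activated cytokine receptors. It had 79.3, 57.8 and 60.5 CPM (KO_MCD), 88.0 and 44.2 CPM (WT_MCD), and 66.3 and 33.2 CPM (WT_NCD). The highest and the next lowest library both belonged to WT_MCD, so the groups overlapped in every comparison. The Cish log2 fold changes were -0.01 (SE 0.44), 0.41 (SE 0.48) and 0.41 (SE 0.45) in KO_MCD against WT_MCD, WT_MCD against WT_NCD and KO_MCD against WT_NCD. The first of these changed sign under 8 of 14 alternatives and has no direction. Cish shares 11.5% of its exon bases with Gm17041 and Gm17040 on the other strand, neither of which was counted in any library.

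Socs1 (chromosome 16, 10782240 to 10785536) encodes an inhibitor that blocks JAK kinases directly and restrains interferon gamma signals as well. It had 21.8, 21.7 and 44.8 CPM (KO_MCD), 20.0 and 17.6 CPM (WT_MCD), and 22.9 and 7.73 CPM (WT_NCD). By CPM the knockout libraries were above both WT_MCD libraries, 2 of the 3 by under 2 CPM, and only KO_MCD replicate 3 stood clear of the rest. Per 1000 CPM of the T cell list the knockout, at 2.07 to 4.05, overlapped WT_MCD, at 1.33 and 2.33. The Socs1 log2 fold changes were 0.64 (SE 0.61), 0.30 (SE 0.66) and 0.94 (SE 0.62), and without KO_MCD replicate 3 the first was 0.21.

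Socs2 (chromosome 10, 95385362 to 95417180), best known for restraining growth hormone signals through STAT5b, had 13.9, 40.0 and 38.0 CPM (KO_MCD), 31.7 and 16.7 CPM (WT_MCD), and 26.9 and 30.5 CPM (WT_NCD). The knockout libraries alone spanned the whole range of the other libraries. Its log2 fold changes were 0.34 (SE 0.56), -0.25 (SE 0.61) and 0.09 (SE 0.56).

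Socs3 (chromosome 11, 117966079 to 117970047), the main brake on IL-6 receptor signalling through STAT3, had 319.6, 288 and 162 CPM (KO_MCD). It had 144 and 332 CPM (WT_MCD), and 249.7 and 102 CPM (WT_NCD). The groups overlapped, and the libraries of each group lay far apart. The library with the highest macrophage sum (WT_MCD replicate 2) had the highest Socs3 level, and the 2 libraries with the lowest sums (WT_NCD replicate 2 and WT_MCD replicate 1) had the lowest; the part of macrophages in Socs3 was not tested. The Socs3 log2 fold changes were 0.11 (SE 0.53), 0.44 (SE 0.58) and 0.55 (SE 0.54) in KO_MCD against WT_MCD, WT_MCD against WT_NCD and KO_MCD against WT_NCD.

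Pim1 (chromosome 17, 29490753 to 29496112), a survival kinase induced by STAT5, had 29.4, 48.6 and 20.5 CPM (KO_MCD), 41.2 and 33.6 CPM (WT_MCD), and 43.1 and 14.9 CPM (WT_NCD). The groups overlapped in all 3 comparisons, and the log2 fold changes were -0.19 (SE 0.57), 0.37 (SE 0.62) and 0.18 (SE 0.57). Its overlapping antisense gene Gm26885 had at most 9 counts in a library, against 347 to 1073 counts of Pim1. WT_NCD replicate 2, with the lowest macrophage sum and the highest T cell sum, was the lowest library for Cish, Socs1, Socs3 and Pim1 alike. Without it, their log2 fold changes in WT_MCD against WT_NCD were 0.0023, -0.27, -0.06 and -0.20. WT_MCD replicate 1, next lowest in macrophage sum, had the highest Cish (88.0 CPM) but the next lowest Socs3 (144 CPM). WT_MCD replicate 2, highest in macrophage sum, had the next lowest Cish (44.2 CPM) and Socs1 (17.6 CPM) but the highest Socs3 (332 CPM). The part of other cells in these values was not tested.

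**Figure D3:**
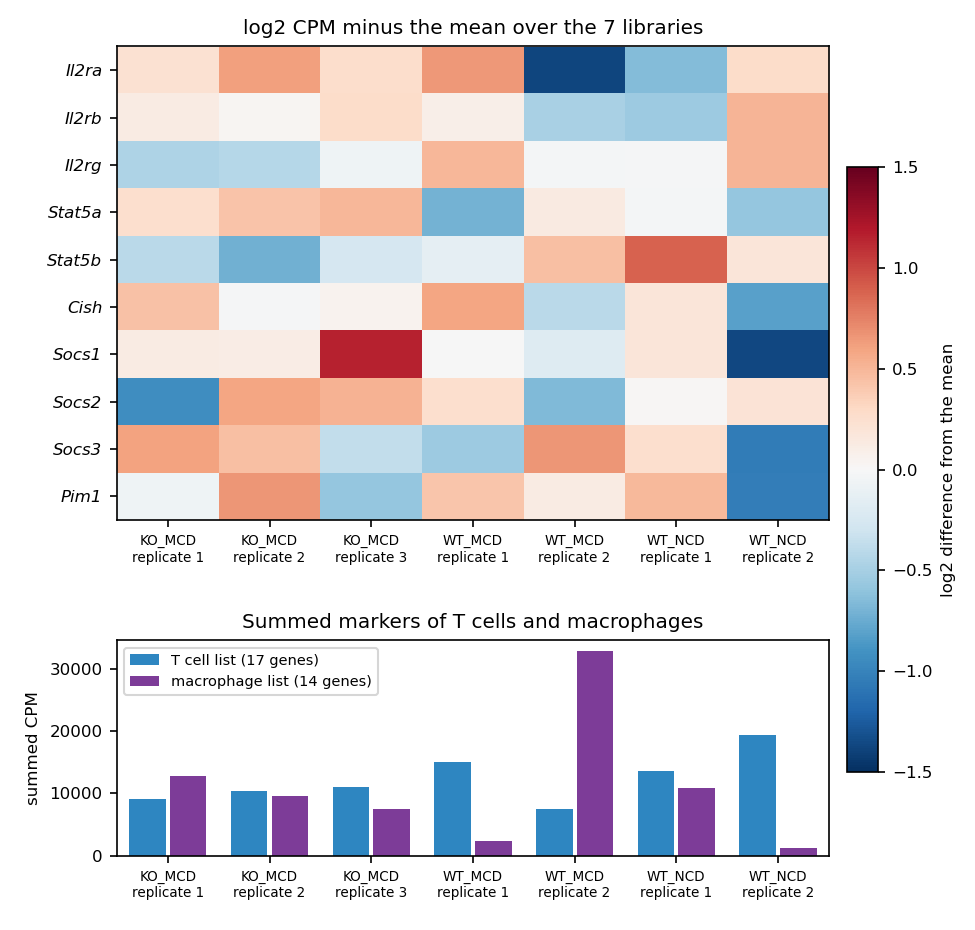
The upper panel shows log2 CPM minus the mean over the 7 libraries (columns) for the 10 genes (rows), and the lower panel shows summed CPM of the T cell and macrophage lists per library. WT_MCD replicate 2 has the lowest Il2ra and the highest macrophage sum (32987 CPM). WT_NCD replicate 2 has the lowest Cish, Socs1, Socs3 and Pim1, the lowest macrophage sum (1180 CPM) and the highest T cell sum (19406 CPM).

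None of the 10 genes passed in any comparison by edgeR over all genes. The calls over all genes were 0% of those tested as well, so the count is that of the background. The targeted gene Nt5e was among the genes tested and was not called by edgeR either. It had 5.88 to 14.5 CPM in KO_MCD and 87.6 to 177 CPM in WT_MCD. A gene that did not pass may thus still differ between the groups. By DESeq2 and limma voom it was also 0 of 10, with DESeq2 calling 0.338%, 2.12% and 3.80% of all genes in KO_MCD against WT_MCD, WT_MCD against WT_NCD and KO_MCD against WT_NCD. At an unadjusted edgeR p under 0.05 the count was 0 of 10 in KO_MCD against WT_MCD (3.25% of all genes, 1.20% higher and 2.04% lower), 0 of 10 in WT_MCD against WT_NCD (6.00%, 3.96% higher and 2.04% lower) and 1 of 10, Stat5b, in KO_MCD against WT_NCD (8.97%, 4.72% higher and 4.25% lower). By CPM the groups did not overlap for 4 of 10 genes in KO_MCD against WT_MCD, against 18.0% of all tested genes (8.37% higher, 9.66% lower). The 4 were Stat5a and Socs1, higher, and Il2rg and Stat5b, lower. In KO_MCD against WT_NCD they did not overlap for Stat5a, Il2rg and Stat5b, 3 of 10 against 26.1% (13.4% higher, 12.8% lower). In WT_MCD against WT_NCD they overlapped for all 10, while 31.6% of all genes did not overlap (16.8% higher, 14.8% lower).

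The median log2 fold change of the 10 genes was 0.21 in KO_MCD against WT_MCD, where 6 were higher and 4 lower. Of all genes 47.9% were higher and 51.9% lower there, with a median of -0.03. It was 0.07 in WT_MCD against WT_NCD (6 higher, 4 lower; all genes 0.04, with 52.3% higher and 47.2% lower) and 0.29 in KO_MCD against WT_NCD (8 higher, 2 lower; all genes 0.06, with 52.8% higher and 46.9% lower). Both comparisons of the knockout use the same 3 KO_MCD libraries, and both with WT_MCD share its 2 libraries.

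**Figure D4:**
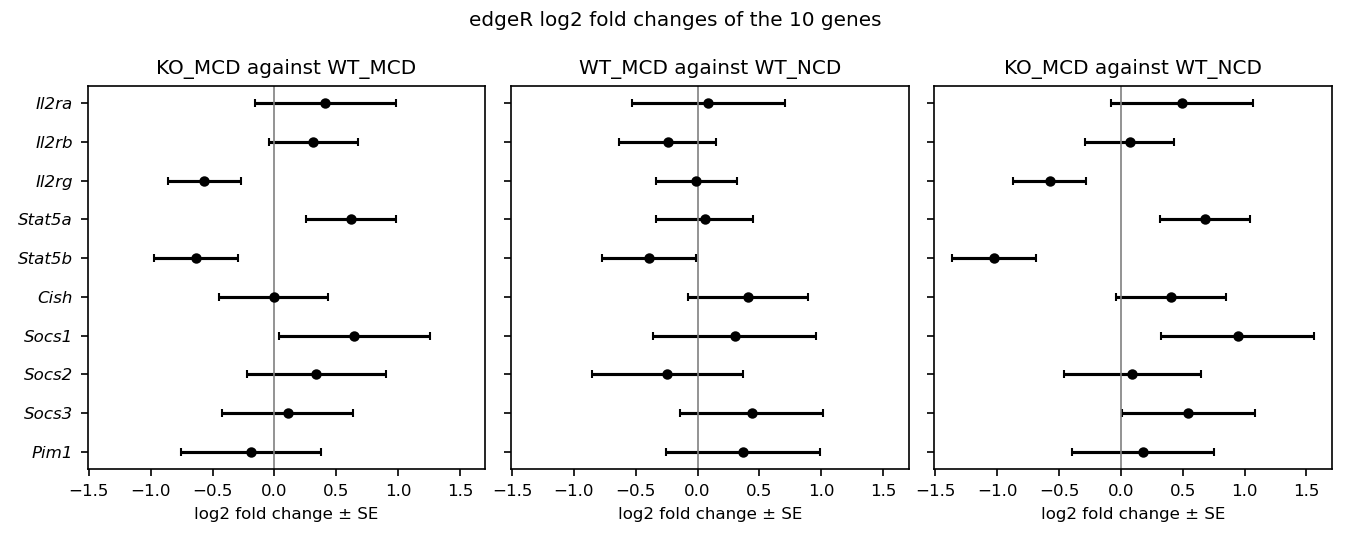
Log2 fold changes (x axis, edgeR fit of all 7 libraries) of the 10 genes (rows) in the 3 comparisons (panels), with bars of 1 SE; positive values are higher in the group named first. Stat5b lies at -0.63 and -1.02 and Stat5a at 0.62 and 0.68 in the comparisons with the knockout, and none passed the threshold.

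Per length, the receptor chains stood far above the transcription factors and most inhibitors. Il2rg averaged 271 ± 74.8 CPM per kb of exon and Il2rb 225 ± 56.7 (SD over the 7 libraries). Il2rg was the higher in 4 of 7 libraries, all of them wild type, and Il2rb in every KO_MCD library. The pair thus had no single order over all libraries. Il2ra averaged 96.9 ± 38.8 CPM per kb, below Il2rb in all 7 libraries and above Socs3 (78.9 ± 31.8) in 4. Socs3 was above Stat5b (16.7 ± 6.64) in all 7. Pim1 (9.83 ± 3.66), Cish (9.55 ± 2.96), Stat5a (9.48 ± 2.83) and Socs1 (7.69 ± 3.83) could not be ordered beyond their spread per kb. Socs2 was lowest per kb, with 2.96 ± 1.04. The exon length joins all annotated transcripts and can exceed that of the message made, so this order depends on it. By median CPM the order differed, with Stat5a at 71.3, Cish at 60.5, Pim1 at 33.6, Socs2 at 30.5 and Socs1 lowest at 21.7. Between the highest and lowest library Il2rg varied least (1.96-fold) and Socs1 most (5.79-fold).

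**Figure D5:**
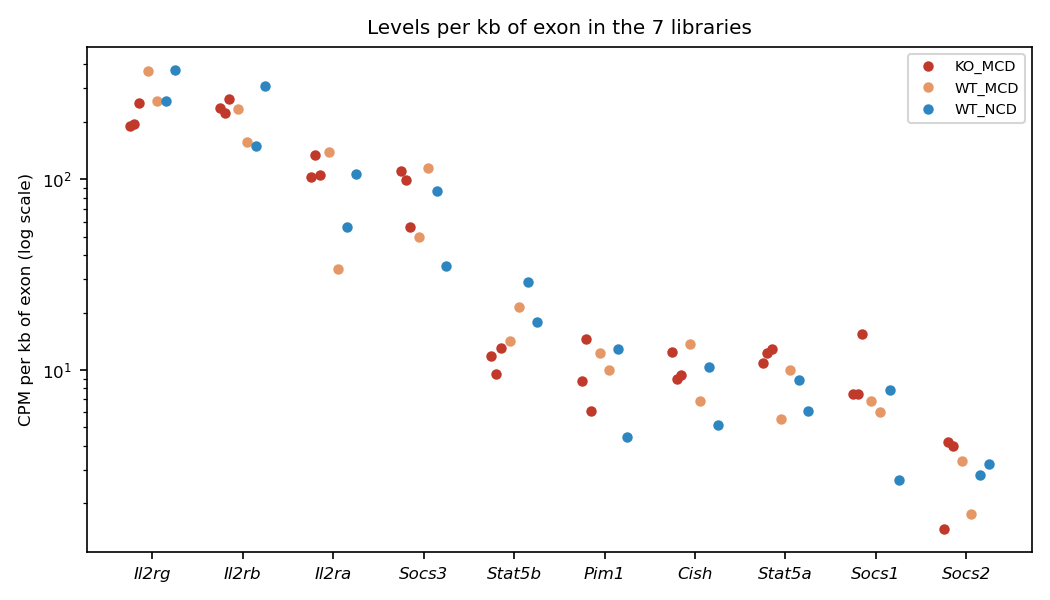
CPM per kb of exon (y axis, log scale) of the 10 genes in order of their mean, 1 point per library, with groups side by side. Il2rg, Il2rb, Il2ra and Socs3 lie between 33.8 and 374 CPM per kb, and the other 6 genes between 1.46 and 28.9.

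Around these genes lie the ligands and other receptors of the gamma chain family. They were listed together with Crlf2, Csf2rb and Csf2rb2, receptor genes that are not of that family. Of the 14 genes on this mixed list 13 were tested (Il9 was not counted). None passed by edgeR, DESeq2 or limma voom in any comparison. At an unadjusted edgeR p under 0.05 the counts were 0, 1 and 0 in KO_MCD against WT_MCD, WT_MCD against WT_NCD and KO_MCD against WT_NCD. The 1 gene was Csf2rb. Of the 13, 9 were higher and 4 lower in KO_MCD against WT_MCD, 10 and 3 in WT_MCD against WT_NCD, and 9 and 4 in KO_MCD against WT_NCD. In that order, 3.25%, 6.00% and 8.97% of all genes had an unadjusted edgeR p under 0.05, and 47.9%, 52.3% and 52.8% were higher. By CPM the groups did not overlap for 18.0%, 31.6% and 26.1% of all genes. These shares stand beside the lists that follow as well. Il4ra, the IL-4 receptor chain that pairs with the gamma chain, had 281 ± 41.4 CPM (KO_MCD, SD, n = 3), 202 ± 11.3 CPM (WT_MCD, SD, n = 2) and 298 ± 45.6 CPM (WT_NCD, SD, n = 2), so that only the WT_MCD libraries lay apart. Il21r and Crlf2 (IL-21 and TSLP receptors) differed by 0.40 (SE 0.35) and -0.92 (SE 0.66) on the log2 scale in KO_MCD against WT_MCD, and Il15ra, the IL-15 alpha chain, by 0.59 (SE 0.52) in KO_MCD against WT_NCD. Csf2rb, the beta chain of the IL-3 and GM-CSF receptors of myeloid cells, had 123 to 135 CPM (KO_MCD), 26.9 and 331 CPM (WT_MCD), and 46.8 and 8.80 CPM (WT_NCD), highest and lowest in the libraries with the highest and lowest macrophage sums. Its relative Csf2rb2 had a log2 fold change of 1.62 (SE 1.88) in KO_MCD against WT_NCD.

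Of the 9 Janus kinases and other STATs, all tested, none passed by edgeR, DESeq2 or limma voom (0, 0 and 1 at an unadjusted edgeR p under 0.05, comparisons in the same order), and 5 were higher in KO_MCD against WT_MCD, 3 in WT_MCD against WT_NCD and 4 in KO_MCD against WT_NCD. Stat3, which answers IL-6 and IL-10, had 613 ± 39.6 CPM (KO_MCD, SD, n = 3), 633 ± 20.8 CPM (WT_MCD, SD, n = 2) and 434 ± 36.4 CPM (WT_NCD, SD, n = 2). Both deficient diet groups lay above both control diet libraries, with an edgeR adjusted p of 0.808 for WT_MCD against WT_NCD. Tyk2, a kinase of the interferon and IL-12 receptors, had 95.2, 151 and 59.0 CPM (KO_MCD), 47.6 and 55.0 CPM (WT_MCD), and 54.6 and 90.0 CPM (WT_NCD), so that the knockout overlapped WT_NCD; in KO_MCD against WT_MCD it differed by 0.99 on the log2 scale (SE 0.46). For Stat6 and Stat2 the differences in KO_MCD against WT_MCD were -0.28 and 0.38 (log2), for Stat2 in WT_MCD against WT_NCD -0.69, and for Stat4 in KO_MCD against WT_NCD -0.62.

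Of 19 other negative regulators, all tested, none passed by edgeR or limma voom. DESeq2 called 3 in KO_MCD against WT_NCD, where it called 3.80% of all genes. It called 0 in KO_MCD against WT_MCD (0.338% of all genes) and in WT_MCD against WT_NCD (2.12%). At an unadjusted edgeR p under 0.05 the counts were 0, 2 and 3 in the same order, against 3.25%, 6.00% and 8.97% of all genes. Of the 19, 9 were higher in KO_MCD against WT_MCD, 14 in WT_MCD against WT_NCD and 14 in KO_MCD against WT_NCD. Of all genes 47.9%, 52.3% and 52.8% were higher. Ptpn11, the phosphatase SHP2, had 41.5, 61.2 and 62.0 CPM (KO_MCD), 70.1 and 44.0 CPM (WT_MCD), and 19.5 and 21.0 CPM (WT_NCD). Its 5 deficient diet libraries were all above the control diet libraries (log2 fold change 1.49, SE 0.41, edgeR adjusted p = 0.712 for WT_MCD against WT_NCD; 1.44, SE 0.39, adjusted p = 0.386 for KO_MCD against WT_NCD). Dok2, an adaptor that restrains Ras, had 188 ± 54.9 CPM (KO_MCD, SD, n = 3), 305 ± 66.6 CPM (WT_MCD, SD, n = 2) and 420 ± 47.9 CPM (WT_NCD, SD, n = 2). The knockout did not overlap either wild type group, as did 18.0% (WT_MCD) and 26.1% (WT_NCD) of all genes. KO_MCD replicate 2 (251 CPM) was close to WT_MCD replicate 2 (257 CPM). Socs5, a less studied SOCS gene, had 44.9, 9.38 and 7.34 CPM (KO_MCD), 20.0 and 4.31 CPM (WT_MCD), and 0.556 and 1.67 CPM (WT_NCD). Socs7 and the phosphatase gene Ptpn1 differed on the log2 scale by -1.49 (SE 0.71) and -0.48 (SE 0.33) in KO_MCD against WT_MCD, and Socs4 by 1.02 (SE 0.61) in WT_MCD against WT_NCD.

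Of 15 genes in the PI3K and MAPK arms of the receptor, none passed by edgeR, DESeq2 or limma voom (0, 1 and 0 at an unadjusted edgeR p under 0.05). In KO_MCD against WT_MCD 3 were higher and 12 lower, with a median log2 fold change of -0.31, against -0.03 for all genes. The counts were 9 higher and 6 lower in WT_MCD against WT_NCD, and 7 higher and 8 lower in KO_MCD against WT_NCD. Pik3cd, the leukocyte PI3K subunit p110 delta, was 1 of the 3 that stood higher in the knockout, with 214, 224 and 227 CPM (KO_MCD), 104 and 178 CPM (WT_MCD), and 223 and 377 CPM (WT_NCD). In KO_MCD against WT_MCD Sos1 and Akt1 differed by -1.43 (SE 0.85) and -0.69 (SE 0.42) on the log2 scale. Mtor had a log2 fold change of 1.01 (SE 0.64) in WT_MCD against WT_NCD. Lck, the T cell kinase that also couples to the IL-2 receptor, had one of -0.46 (SE 0.39) in WT_MCD against WT_NCD and -0.70 (SE 0.36) in KO_MCD against WT_NCD. Sos1 had one of -1.14 (SE 0.85) in KO_MCD against WT_NCD.

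Of 16 further genes under STAT5 control in T cells, none passed by edgeR, DESeq2 or limma voom (1, 2 and 3 at an unadjusted edgeR p under 0.05), and 5 were higher in KO_MCD against WT_MCD, 10 in WT_MCD against WT_NCD and 8 in KO_MCD against WT_NCD. Myc, the growth regulator, had 419, 387 and 273 CPM (KO_MCD), 195 and 148 CPM (WT_MCD), and 200.4 and 144 CPM (WT_NCD). The knockout libraries were above all wild type libraries (log2 fold change 1.07, SE 0.32, edgeR adjusted p = 1 in KO_MCD against WT_MCD). By CPM 18.0% of all genes did not overlap in KO_MCD against WT_MCD, and 26.1% in KO_MCD against WT_NCD. Ccnd2, the cyclin D2 gene, had 496 ± 120.2 CPM (KO_MCD), 580.4 ± 234 CPM (WT_MCD) and 223 ± 98.4 CPM (WT_NCD), and the survival gene Bcl2 had a log2 fold change of 1.63 (SE 0.54) in KO_MCD against WT_NCD. Mcl1, another survival gene, had 65.0 ± 16.9 CPM (KO_MCD) and 112 ± 23.0 CPM (WT_MCD). Foxp3 had 193 ± 25.2 CPM (KO_MCD), 124 ± 23.7 CPM (WT_MCD) and 234 ± 74.7 CPM (WT_NCD), with WT_MCD below both other groups. Bcl2l1, which encodes BCL-XL, had a log2 fold change of 0.76 (SE 0.41) in WT_MCD against WT_NCD.

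Genes of like pattern were taken by the root mean square difference of centred log2 CPM over the 7 libraries, among 9218 genes averaging 5 CPM or more. Closest to Il2ra were Ptpn13 (a phosphatase), Cntln (a centrosome protein) and She, with differences of 0.196, 0.205 and 0.206, where the median gene had 0.881. Closest to Cish were Rab11fip1, Rbm33 and Sp4, at 0.0906, 0.148 and 0.173 (median gene 0.720). Closest to Socs3 were the immediate early gene Fos, the mRNA decay factor gene Zfp36 and Gch1, at 0.190, 0.227 and 0.228 (median gene 0.842). Fos had 4185, 4014 and 2708 CPM (KO_MCD), 2546 and 5673 CPM (WT_MCD), and 4566 and 1959 CPM (WT_NCD).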

How the data were processed

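RNA of CD4+ CD25+ liver cells was sequenced in 7 libraries, grouped and numbered by their titles. The values are the authors' deposited raw gene counts. The submitters' processing notes name HISAT2 2.1.0 and GRCm38. No source used here states the counting tool, strand setting or library kit. Symbols, positions and exon lengths came from GENCODE vM21 (GRCm38), which held 53360 of 53465 IDs, and start-site windows from RefSeq (GRCm38.p6). The exon length of a gene joins the exons of all its annotated transcripts.

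edgeR 4.0.16 (R 4.3.3) tested the counts by quasi-likelihood over all 7 libraries, with TMM scaling, a coefficient for each group, filterByExpr at 10 counts and Benjamini-Hochberg adjustment over 14784 genes (threshold 0.05, prior count 0.125). The SE is the size of the log2 fold change divided by the square root of F. The fit was tested on simulated data. Replicate libraries differed beyond counting noise, with a chi-square of 88.7 to 320.1 for each degree of freedom, and the common dispersion was 0.833.

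Alternatives were DESeq2 size factors, the T cell list as library size, no filter, DESeq2 1.42.0, limma 3.58.1 voom, a block on replicate numbers, fits of 2 groups, and each library left out. The Stat5b to Stat5a test, the share over all gene pairs and the crossed block were added after the data were seen. Members, gene lists and the naming rule were chosen with earlier results of these data known. The rule named all 10 members, the 3 pathway genes with the smallest p per list and comparison (mean of at least 5 CPM) and the 3 genes of closest pattern for Il2ra, Cish and Socs3. Some pathway genes that the rule names are not reported here.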

Additional observations from a re-analysis of the deposited data

How the results depend on the processing

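None of the 10 genes passed in any comparison under any of the 14 alternatives run for each, the fit with the replicate block included (0 of 10 in all 3). In 375 of 420 fits of a member's fold change the direction held, and in 45 it turned; the cause was not tested. Genes called over the whole table numbered 0 in the fit reported. They were 1, 54 and 140 without a filter on low counts and 50, 314 and 562 by DESeq2, in KO_MCD against WT_MCD, WT_MCD against WT_NCD and KO_MCD against WT_NCD. Deviations from the group mean had correlations of -0.16 to 0.06 between same-numbered libraries. In a group of 2 libraries these deviations mirror each other, so the correlations are not independent. They cannot decide whether the numbers pair samples. The labels state no pairing, and the fit reported uses none. With the numbers of 1 wild type group crossed, a block fit of the 4 wild type libraries called 0 genes and 0 members, a fit chosen after seeing the data.

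In KO_MCD against WT_MCD, Cish turned to 0.0070 with DESeq2 size factors and by DESeq2, 0.17 with the T cell list as library size, 0.047 by limma voom and 0.13 with the replicate block. Socs3 turned to -0.050 with the T cell list, and Pim1 to 0.12 with the replicate block. In WT_MCD against WT_NCD, Il2ra turned to -0.17 by limma voom and -0.0029 with the replicate block. With the T cell list Il2rb, Il2rg, Stat5b and Socs2 turned to 0.42, 0.61, 0.30 and 0.28 there, in each case below the median of 0.72 of all genes. In KO_MCD against WT_NCD, Il2rg turned to 0.12 with the T cell list (median of all genes 0.72), and Socs2 to -0.047 by limma voom and -0.15 with the replicate block.

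With each library left out in turn, the log2 fold changes in KO_MCD against WT_MCD ran from -0.27 to 1.80 for Il2ra, -0.42 to 0.61 for Cish, -0.052 to 0.91 for Socs2, -0.33 to 0.84 for Socs3 and -0.58 to 0.061 for Pim1. In WT_MCD against WT_NCD they ran from -1.28 to 0.77 for Il2ra, -0.67 to 0.38 for Il2rb, -0.31 to 0.29 for Il2rg, -0.42 to 0.40 for Stat5a, -0.19 to 1.0 for Cish, -0.27 to 1.28 for Socs1, -0.80 to 0.15 for Socs2, -0.29 to 1.22 for Socs3 and -0.20 to 1.33 for Pim1. In KO_MCD against WT_NCD they ran from -0.36 to 0.69 for Il2rb, -0.0051 to 0.99 for Cish, 0.37 to 1.92 for Socs1, -0.14 to 0.44 for Socs2, 0.045 to 1.33 for Socs3 and -0.39 to 1.14 for Pim1; WT_NCD replicates 1 and 2 gave the ends of these ranges except for Socs2. Il2rg and Stat5b stayed lower and Stat5a and Socs1 higher in KO_MCD against WT_MCD under all 14 alternatives (-0.81 to -0.24, -0.86 to -0.32, 0.29 to 1.10 and 0.21 to 0.82).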

Other observations

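Ligands of the receptor were counted at low levels; they are among the gamma chain family genes tested above and are named here after their values were seen. Il2 itself had 1.51, 0.0906 and 3.24 CPM (KO_MCD), 0.0930 and 0.893 CPM (WT_MCD), and 0.354 and 0.472 CPM (WT_NCD), or 2 to 68 reads per library. Il15, which signals through the same beta and gamma chains, had 2.82, 10.3 and 1.24 CPM (KO_MCD), 0 and 5.30 CPM (WT_MCD), and 2.33 and 0.301 CPM (WT_NCD). The groups overlapped for both ligands.

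Among the kinases that the receptor carries, Jak1 had 876, 877 and 1047 CPM (KO_MCD), 1103 and 942 CPM (WT_MCD), and 752 and 874 CPM (WT_NCD). Jak3, which binds the gamma chain, had 155, 191 and 104 CPM (KO_MCD), 175 and 98.4 CPM (WT_MCD), and 117 and 215 CPM (WT_NCD). Il7r, the IL-7 receptor chain that IL-2 signals repress in T cells, had 441, 423 and 971 CPM (KO_MCD), 1122 and 394 CPM (WT_MCD), and 679 and 567 CPM (WT_NCD). The groups overlapped for Jak3 and Il7r, and these genes too were named after their values were seen.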
